A study of Drosophila melanogaster with 2 samples.

Results

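The RpL genes encode the proteins of the large subunit of the cytoplasmic ribosome and a few close relatives. They were taken as every annotated protein-coding gene of the fruit fly whose symbol starts with RpL, which left out the mitochondrial mRpL genes. The rule gave 54 genes of 13968 protein-coding genes. What was described is where CG17328 peaks lay at their promoters. The members were chosen by name and not by any peak value.

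The peaks came from chromatin immunoprecipitation followed by sequencing (ChIP-seq) of whole Drosophila melanogaster embryos collected over 0 to 24 h. The embryos were transgenic and carried the CG17328 protein fused to enhanced green fluorescent protein (eGFP), and an antibody against GFP pulled down the fusion from sonicated chromatin. There were 2 biological replicates of this one strain and stage, and no other genotype or treatment. Both replicates carry the tagged protein, so a peak is that of the fusion, averaged over all cell types and stages of the collection. No control library was analysed here, and no source used here names the promoter or the insertion site of the transgene.

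The large ribosomal subunit holds the peptidyl transferase centre, the tunnel through which the new peptide leaves, and flexible stalks that handle elongation factors and departing tRNA. Cells need most of its proteins in equal amounts, and their genes are among the most actively transcribed. In flies many ribosomal protein promoters start transcription inside a short run of pyrimidines, the polypyrimidine initiator, rather than at the usual initiator. The DNA replication-related element (DRE), bound by the factor Dref, and motif 1 are other core promoter elements of broadly expressed fly genes.

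Short sequences at the starts and summits show what kind of promoter the peaks sat on. All are from the RefSeq copy of the genome on assembly dm6, run 5′ to 3′ on the strand of the gene, and stand in capitals where they match a word searched. Motif 1 lay within 50 bases of the conservative summit at 4 members, RpL7, RpLP0, RpL27A and RpLP1. Their sites follow, of 29 bases each, with motif 1 in capitals. They lie at chr2L:10200979-10201007 (plus strand), chr3L:22076055-22076083 (plus), chr2L:4458330-4458358 (minus) and chr2L:419924-419952 (plus).
RpL7: ctccgcggcCAGTGTGACCGtttggccga
RpLP0: ccatcgaagCGGTCACACTGggtgccgcc
RpL27A: gccgccgggCGGTCACACTGctacaaccg
RpLP1: tcatcggcgCGGTCACACTGcatatcaac
The centre of the motif lay at -11 bp from the nearest start at RpL7, -23 bp at RpLP0, -14 bp at RpLP1 and 20 bp at RpL27A, with negative values upstream. At RpL7 the motif ran in the opposite direction to that at the other members.

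The DRE word TATCGATA lay within 50 bases of the summit at 8 members, of which RpL34a, RpL27, RpL37-1 and RpL36 are shown, 28 bases each with the word in capitals. Their sites are chr3R:26059293-26059320, chr3R:25685074-25685101, chrX:15139407-15139434 and chrX:629460-629487, all on the minus strand.
RpL34a: gttttgaaatTATCGATAgcaattaata
RpL27: tgccactaagTATCGATAaaaagacgac
RpL37-1: ggacaaaaacTATCGATActcgcgcaac
RpL36: cccgcccgccTATCGATAataaggcacg
The search window of 50 bases made these sites close to the summit. Within it the distance varied: the centre of the word was at 10 bp from the summit at RpL34a and at -43 bp at RpL37-1.

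Windows of 61 bases around the gene start show the polypyrimidine initiator, searched as CTTTC or CTTTT on the strand of the gene within 10 bases of the start, with its letters in capitals. The last 11 bases are the first transcribed ones. RpL14, RpL23A, RpL8 and RpL4 carry strong conservative peaks, RpL13A carries a strong peak in the ranked lists only, and RpL40 carries none past the threshold. The windows are chr3L:8600956-8601016 (plus), chr3L:1668644-1668704 (minus), chr3L:2587406-2587466 (plus), chr3R:27922771-27922831 (plus), chr3R:5624424-5624484 (plus) and chr2L:4227649-4227709 (plus).
RpL14: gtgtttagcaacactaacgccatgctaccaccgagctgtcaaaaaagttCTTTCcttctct
RpL23A: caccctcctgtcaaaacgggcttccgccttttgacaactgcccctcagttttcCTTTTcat
RpL8: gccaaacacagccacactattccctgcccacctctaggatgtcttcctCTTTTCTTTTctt
RpL4: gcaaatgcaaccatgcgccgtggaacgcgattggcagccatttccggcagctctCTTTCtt
RpL13A: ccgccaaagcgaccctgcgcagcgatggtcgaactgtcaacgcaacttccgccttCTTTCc
RpL40: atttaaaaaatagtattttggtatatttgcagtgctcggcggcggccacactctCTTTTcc
The initiator word was thus present at promoters with and without a peak.

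Most RpL promoters carried a peak. With a promoter peak defined as a summit within 500 bp of an annotated start, 43 of 54 RpL genes (79.6%) had one in the authors' conservative list of 5807 peaks, beside 20.1% of all protein-coding genes. The 38 RpS genes of the small cytoplasmic subunit had one in 27 cases (71.1%). The 73 mRpL and mRpS genes of the mitochondrial ribosome had one in 21 cases (28.8%). The RpL and RpS shares were close to each other and both lay well above those of the mitochondrial and of all coding genes. These shares are descriptions of genes within 1 list, without a test.

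The other lists gave RpL counts near this one wherever the authors' threshold applied. The threshold was a score of 830, which stands for an IDR of 0.01 (irreproducible discovery rate, an estimate of how likely a peak is to be irreproducible between the sets compared). The other thresholded list of the series had 40 RpL genes (74.1%) beside 21.0% of coding genes. The own thresholded list of replicate 1 had 37 (68.5%) beside 14.2%, and that of replicate 2 had 41 (75.9%) beside 15.8%. A promoter peak in both replicates' own lists was found at 36 RpL genes (66.7%) beside 11.7%. In each of these lists the RpL share was more than 3 times the share of coding genes.

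The ranked lists, which have no threshold, separated the groups much less. The ranked list that goes with the conservative one had a promoter summit at 50 RpL genes (92.6%) beside 79.9% of coding genes, and the other ranked list of the series at 50 beside 79.7%. Replicate 1 had 49 (90.7%) beside 72.3% and replicate 2 had 51 (94.4%) beside 68.0%. Most of these candidates at coding genes were weak, with a median signal of 33.6 at all coding promoters in the first of these lists and 183 at RpL promoters. When only ranked candidates with a score of at least 830 were kept, 44 RpL genes (81.5%) stood beside 20.6% of coding genes, 38 beside 14.5% in replicate 1 and 42 beside 16.1% in replicate 2.

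**Figure D1:**
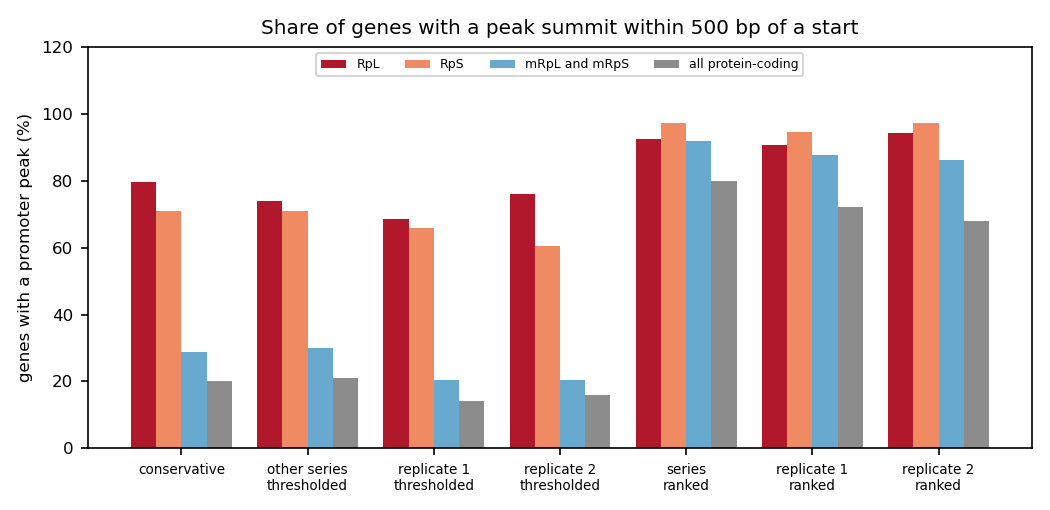
Share of genes with a peak summit within 500 bp of a start (%, vertical axis) in 7 peak lists, for RpL, RpS, mitochondrial ribosomal protein and all protein-coding genes. In the conservative list 79.6% of RpL genes stand beside 20.1% of all coding genes, while in the ranked lists all 4 groups lie above 60%.

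The 43 conservative peaks were 43 different peaks, and each lay nearer to a start of its RpL gene than to a start of any other coding gene. They were found on all the large chromosome arms that hold members. On 2L 10 of 13 members had a peak, on 2R 11 of 14, on 3L 8 of 10, on 3R 8 of 11 and on X all 6. No further conservative summit lay inside the body of an RpL gene away from its promoter.

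Signal, the authors' value for each peak, is pooled over both replicates in the conservative list and has no error of its own. It ranged from 55.6 at RpL35 to 599 at RpL7 over the RpL promoter peaks, with a median of 203 beside 109 at the 2769 other coding genes with a promoter peak. Of the 43, 34 lay above the median of all coding promoter peaks and 24 (55.8%) above their upper quartile of 191. RpL peaks were therefore mostly above the middle of the list but not at its top: RpL7, the strongest, ranked 118 of 5807 peaks. The RpS median was 194 and the mitochondrial one 105.

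Replicate values were taken from the replicates' own lists, at some peaks from the ranked list only. RpL9 had no value in replicate 1. No source used here says whether both lists put signal on one scale, so replicate values are set beside the ratio over all coding peaks. At the 36 RpL peaks found in both own lists the ratio of replicate 2 to replicate 1 had a median of 1.16, and replicate 2 was higher at 31 of 36. Over all coding promoter peaks found in both, the median ratio was 1.28 and replicate 2 was higher at 83.8%. The lowest of the RpL ratios was 0.766, at RpL7A. The summits of the replicates lay a median of 14.5 bp apart and at most 70 bp apart.

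RpL7, a large-subunit protein, had the strongest RpL peak. Its summit was 31 bp downstream of the nearest start at chr2L:10200914-10201147, with a pooled signal of 599, 254 in replicate 1 and 346 in replicate 2. RpL14 followed with 444 in the pooled list, 178 and 263 in the replicates. RpL24, a protein that joins the subunit late in assembly, had 391 pooled, 210 and 184. Replicate 1 was the higher one at RpL24 and the lower one at RpL7 and RpL14.

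RpL23A, which sits at the mouth of the exit tunnel where the signal recognition particle docks, had a pooled signal of 379, with 152 in replicate 1 and 233 in replicate 2. RpL41, the smallest protein of the ribosome, also had 379, with 176 and 190. RpL22 had 306, with 119 and 180. Their summits lay at -68, -65 and -84 bp from the start, farther out than most RpL summits.

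RpL30 had a pooled signal of 299, with 131 in replicate 1 and 166 in replicate 2. RpL8, which supports the peptidyl transferase centre, had 296, with 131 and 156. RpL4, which lines the exit tunnel, had 280, with 139 and 141. RpL32, a gene often used as a reference in expression work, had 288, with 111 and 175. RpL34b had 321, with 159 and 166. All of the 12 strongest peaks were in both replicates' own lists.

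**Figure D2:**
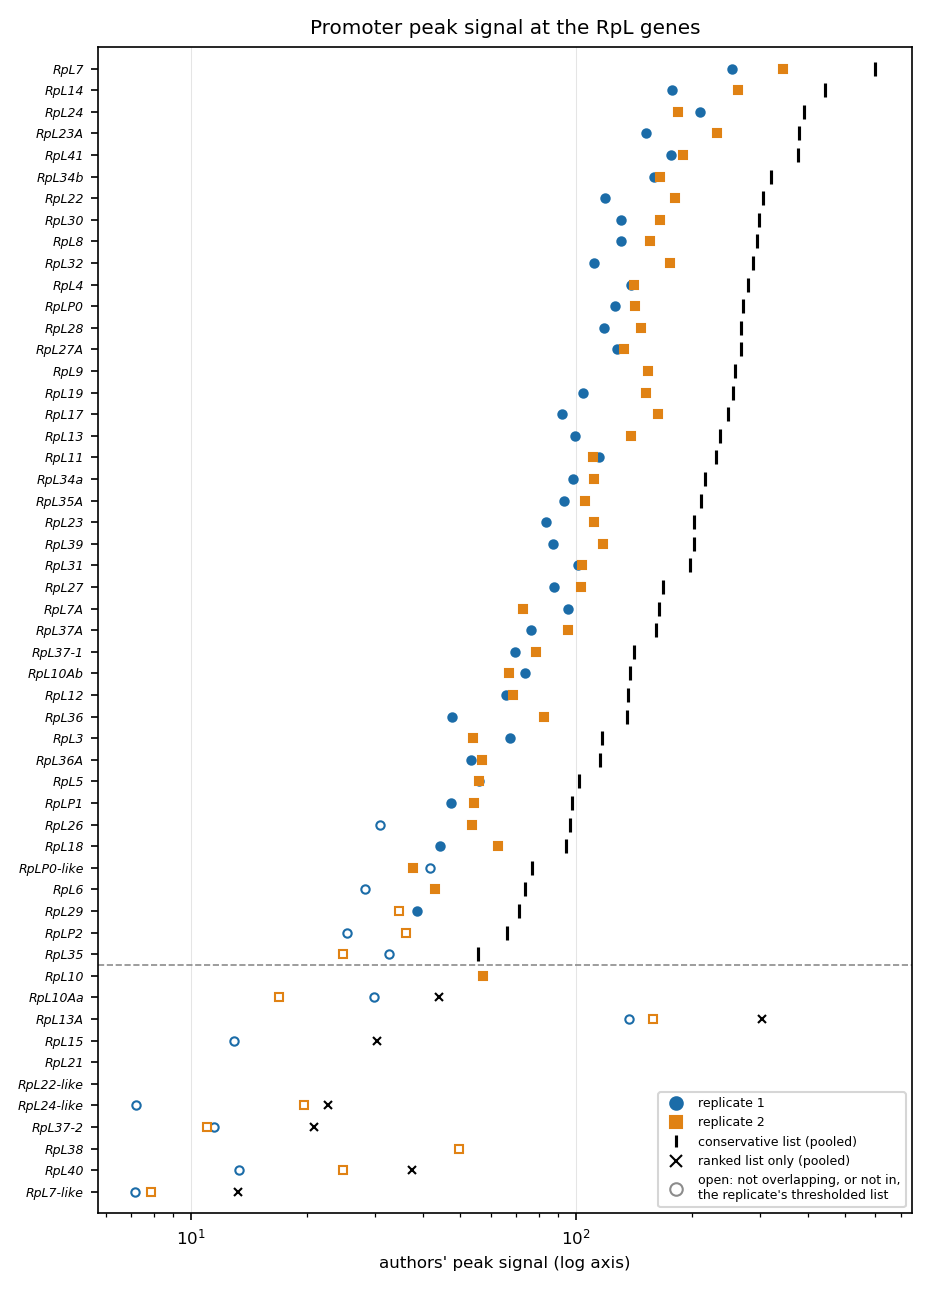
Authors' peak signal (log axis) at the RpL genes, with circles for replicate 1, squares for replicate 2, bars for the pooled conservative list and crosses for genes with a pooled candidate in the ranked list only; open symbols mark values outside the replicate's thresholded list. Genes below the dashed line have no conservative promoter peak. RpL13A stands out below the line with a pooled ranked signal of 304, while the conservative peaks run from 599 at RpL7 to 55.6 at RpL35.

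By role, the stalk that recruits elongation factors had a peak at all 4 members but with different signals. RpLP0, which carries the acidic stalk proteins, had 272 in the pooled list, with 126 in replicate 1 and 142 in replicate 2. The pooled signal was 136 at RpL12, 97.8 at RpLP1 and 66.3 at RpLP2. RpLP2 passed in neither replicate's own list, where its ranked candidates had 25.5 and 36.2. Both replicate values of RpLP0 lay above those of the other members of the stalk.

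RpL5 and RpL11, which together bind 5S rRNA in the central protuberance, had 102 and 232. At RpL5 the replicates had 55.8 and 56.1, at RpL11 115 and 111. Around the peptidyl transferase centre RpL8 had 296 and RpL3 had 117, while RpL10 had no conservative peak. At RpL3 replicate 1 (67.6) was higher than replicate 2 (53.9). Among tunnel proteins RpL17 had 249 and RpL39 203, and at the tunnel exit RpL19 had 256, RpL31 198, RpL26 96.3 and RpL35 55.6. No role stood at one level.

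The remaining subunit proteins ran from RpL28 at 269, RpL27A at 268 and RpL9 at 259 through RpL13 at 236, RpL35A at 211, RpL23 at 203, RpL27 at 169, RpL7A at 165, RpL37A at 161, RpL36 at 136 and RpL36A at 116 to RpL18 at 94.5. RpL9 had no candidate near its start in the ranked list of replicate 1, although replicate 2 had 154 there. A replicate 1 value therefore cannot be set beside the pooled value of RpL9, which had an IDR of 1e-05 in the ranked lists of the series.

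The weakest conservative peaks were those of RpL18, RpLP0-like, RpL6, RpL29, RpLP2 and RpL35. RpL6 had a pooled signal of 73.7 and passed in replicate 2 (43.0) but not in replicate 1 (28.3). RpL29 had 71.0 and passed in replicate 1 (38.7) but not in replicate 2 (34.7). RpL35 had 55.6 and passed in neither, at 32.6 and 24.8. RpL26 passed in replicate 2 (53.8) and not in replicate 1 (31.1). RpLP0-like had 77.1 and passed in replicate 2 (37.8) but not in replicate 1, where its candidate had 41.7. In all, 36 of the 43 peaks (83.7%) were in both own lists, 1 in replicate 1 only, 4 in replicate 2 only and 2 in neither. An overlap of at least 1 bp counted here, and with 50% reciprocal overlap 28 were in both. Over all coding promoter peaks 57.7% were in both. RpLP0-like, RpLP2 and RpL35 were also the members that the other thresholded list of the series lacked.

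Genes with paralogs mostly had a peak at 1 copy. RpL34a and RpL34b both had one, at 216 and 321, and replicate values of 98.0 and 112 at RpL34a. RpL37-1 had 141, with 69.6 and 79.0 in the replicates, while RpL37-2 had only a weak ranked candidate of 20.9 at -284 bp. RpL10Ab, the protein of the L1 stalk, had 138, with 73.6 and 67.1, while RpL10Aa had a ranked candidate of 44.0 at 350 bp. RpL22 had 306, while its testis-enriched relative RpL22-like had no promoter summit in any ranked list. RpL24 and RpL7 had strong peaks, while RpL24-like and RpL7-like, relatives of yeast ribosome assembly factors, had ranked candidates of 22.6 and 13.3. RpLP0 had 272 and RpLP0-like, a relative of the yeast assembly factor Mrt4, 77.1. Without the assembly-factor relatives and without RpL10Aa, RpL22-like and RpL37-2, 42 of 48 members had a conservative peak. How well reads could be assigned between near-identical copies was not tested.

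RpL13A was a strong peak that no thresholded list held. In the ranked list its summit lay at -49 bp from the start, with a pooled signal of 304, 137 in replicate 1 and 159 in replicate 2, and an IDR of 1e-05 in each. That signal would place it among the 12 strongest RpL peaks. It was 1 of 137 peaks on the chromosome arms that passed the score of 830 in the ranked list and were left out of the conservative list, 84 of them on 3R. Another of them had its summit at position 5623212 of 3R, upstream of the RpL13A start at 5624474. The listings name 1 further input for the thresholded lists that the ranked lists do not have, and no source used here says what it holds.

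The other 10 members without a conservative peak had no pooled candidate past the threshold. RpL10, which joins near the P site late in assembly, passed in replicate 2 alone, with a signal of 57.4 at -60 bp and an IDR of 0.0004. RpL38 had a candidate in replicate 2 alone, with 49.8 and an IDR of 0.755. RpL40, made as a fusion with ubiquitin, had a pooled candidate of 37.4 at 257 bp, and RpL15 one of 30.4 at 491 bp. RpL21, like RpL22-like, had no promoter summit in any ranked list. The start of RpL21 lay 1266 kb and that of RpL15 843 kb from the end of the assembled arm that faces the centromere, while that of RpL5, which had a peak, lay 977 kb from it. How well reads map there was not tested.

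RpL summits lay closer to the start than those of other coding genes in this list. Their median position was -18 bp from the nearest start, with all 43 between -124 and 109 bp. At 35 of 43 (81.4%) the summit lay within 50 bp of a start, and 29 lay upstream. Other coding promoter summits had a median of -121 bp, with 16.3% within 50 bp. When each peak was counted once, for the nearest coding start, the others had a median of -92 bp and 21.4%. RpS summits sat like RpL summits, with a median of -3 bp and 74.1% within 50 bp. Those of the mitochondrial ribosomal protein genes had a median of -140 bp and 4.76%. No test was made of these differences.

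**Figure D3:**
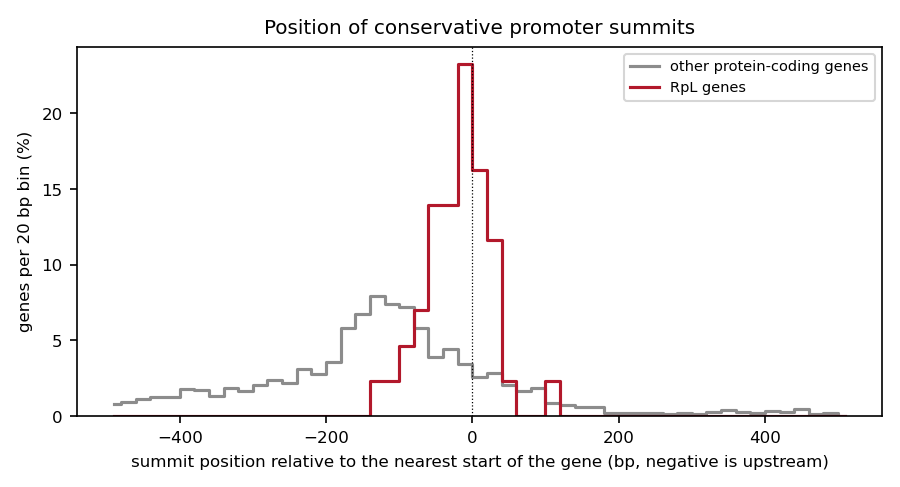
Position of the conservative promoter summit relative to the nearest start of the gene (bp, horizontal axis, negative is upstream) as a share of genes per bin of 20 bp, for 43 RpL and 2769 other coding genes. The RpL summits pile up around the start, with a median of -18 bp, while those of other genes peak upstream, with a median of -121 bp.

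Peak width and signal went together. In the conservative list 80.1% of peaks had a width of 316 bp. Among RpL peaks 19 (44.2%) had that width, with a median signal of 116, and 24 were narrower, with a median of 270. The 18 strongest RpL peaks were all narrower. Other coding peaks had that width in 75.7% of cases, with medians of 88.0 at that width and 297 for narrower ones. Among peaks with the summit within 50 bp of a start, 18 of 35 RpL peaks (51.4%) were under 300 bp wide, beside 46 of 452 others (10.2%). The medians of signal in these subsets were 198 and 83.3. Both replicates held 85.7% of the first and 41.2% of the second.

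The bases around the summit were richer in G+C at RpL genes than at coding genes as a whole. Within 50 bp of the summit the mean was 46.3% ± 7.40 (SD over 43 genes) at RpL and 35.9% ± 11.3 (SD over 2769 genes) at other coding promoters. The summit windows had means of 46.1% at RpL and 35.2% at other coding genes. Upstream, in windows from -300 to -220 bp, the means were 31.0 to 35.8% at RpL and 39.9 to 42.0% at other coding genes. Downstream, from 220 to 300 bp, they were 44.9 to 47.3% and 43.9 to 46.2%. RpL genes were thus richer in G+C at the summit but poorer in the windows upstream of it. These windows were set by the summit, which lay at a median of -18 bp from the start at RpL and -121 bp at other coding genes. They therefore lay at different distances from the start, and the upstream values were not compared at equal position. RpS summits had a mean of 46.1% ± 8.67 (SD over 27 genes), so the value was not one of RpL genes alone. For summits within 50 bp of a start the means were 46.4% ± 6.39 (SD, 35 genes) and 45.0% ± 9.86 (SD, 452 genes). At equal position the values were thus within the spread between genes. RpL34a, at 26.7%, was the lowest of the RpL summits, and RpL7, RpL41 and RpL22, at 60.4% each, were the highest.

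**Figure D4:**
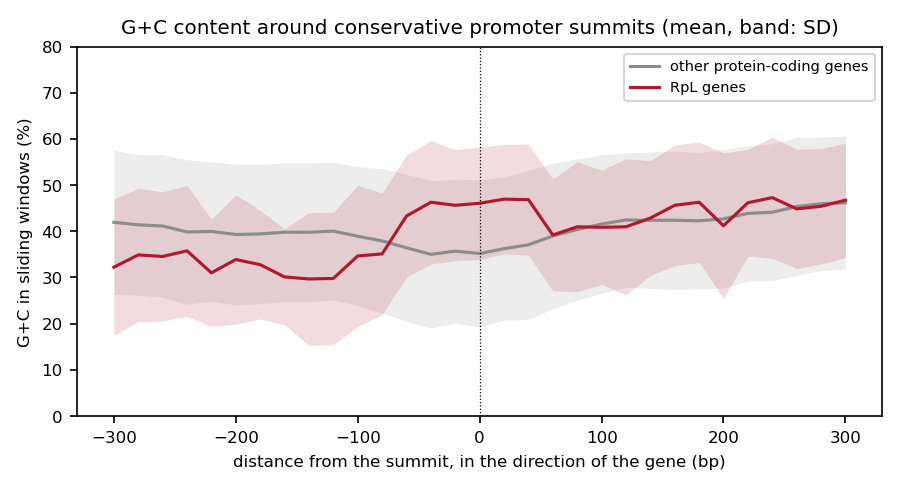
Mean G+C content (%) in windows of 21 bp around the conservative promoter summit, against the distance from the summit in the direction of the gene (bp), with a band of 1 SD over genes. RpL genes rise from 29.8% at -120 bp to 46.1% at the summit. They fall to 39.2% at 60 bp and lie at 44.9 to 47.3% from 220 to 300 bp. Other coding genes are near their lowest at the summit.

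Many RpL peaks also lay near a start of another gene. Of the 43 peaks, 25 (58.1%) also lay within 500 bp of another gene's start, beside 55.7% of coding genes with a promoter peak. A start of a coding gene on the opposite strand lay within 500 bp of 20 (46.5%), beside 1405 of the 2812 coding genes. The 2812 genes had 2064 distinct promoter peaks, so a peak shared by coding genes counted once for each of them. The RpL peaks were all distinct, so these shares are not on the same basis, and shares per distinct peak were not counted. The share with another gene depends on the window, with 14 of 43 peaks at 250 bp and 37 of 43 at 1000 bp. All 20 summits were nearer to the RpL start than to the start of the partner. The partners included Ripalpha at RpL7, Nelf-E (a subunit of the negative elongation factor) at RpL14, Dref at RpL13, eIF1 (a translation initiation factor) at RpL28, Trmt61 at RpL34a and 14-3-3zeta at RpLP0-like. The RpLP0-like summit lay at -42 bp from its own start and 45 bp from that of 14-3-3zeta. The 20 peaks with a divergent coding partner had a median signal of 226 and the 23 without one 169.

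A second promoter peak was found at 4 of the 43 members with a peak (9.30%), beside 309 of 2812 coding genes with one (11.0%). This share was close to the background. Among these members RpL23 had a second peak of 62.1 at -485 bp, RpL10Ab one of 43.6 at -478 bp and RpL37-1 one of 18.0 at -211 bp. Each of these was the weaker peak by definition, since a gene's promoter peak was the one of highest signal. Of the 16 RpL genes that hold a small nucleolar RNA gene within their bounds on the same strand, 14 had a conservative peak. Of the 38 that hold none, 29 did. The same shares over all coding genes were not counted, so no comparison is drawn. The 38 include the assembly-factor relatives, and the 16 include RpL13A, whose peak was in the ranked lists only.

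Promoter words were counted on both strands from 250 bases before to 50 after the gene start. The DRE word TATCGATA was in 15 RpL promoters (27.8%), beside 9.36% of coding promoters. Its core CGATA, which is the core bound by the insulator protein BEAF-32 and is part of every DRE, was in 39 (72.2%), beside 47.3%. The TATA box TATAAA was in 24 (44.4%), beside 45.8%. The GAGA factor word GAGAG was in 12 (22.2%), beside 29.7%, and the E-box CAGCTG in 3 (5.56%), beside 17.6%. Motif 1 was in 5 (9.26%), beside 4.49%. DRE, CGATA and motif 1 were thus in a larger share of RpL promoters than of coding promoters, the E-box and GAGAG in a smaller one. RpS promoters had DRE in 34.2%, CGATA in 73.7% and motif 1 in 7.89%, and mitochondrial ribosomal protein promoters had them in 20.5%, 58.9% and 8.22%. These words were thus not more frequent at RpL promoters alone. A match describes letters in the window and is not a binding site.

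Around the conservative summit, within 50 bases on each side, DRE was at 8 RpL peaks (18.6%), beside 3.20% of coding promoter summits. CGATA was at 20 (46.5%), beside 20.6%, and motif 1 at 4 (9.30%), beside 0.889%. TATAAA was at 4, beside 20.7%, and GAGAG at 2, beside 10.2%. The E-box was at 0 of 43, beside 5.30%. The word TATTTTAA, which an earlier look at the whole set of peaks had raised, was at 0 of 43 RpL summits and at 6.12% of coding promoter summits. In the wider promoter it was in 6 RpL genes (11.1%), beside 10.1%. RpS summits had DRE in 18.5%, CGATA in 44.4% and the E-box in 18.5%. RpL summits sit nearer to the start than other summits. Among other coding summits TATTTTAA was at 2.65% of the 452 within 50 bp of a start and at 6.91% of the 2317 farther out, with 0 of 35 RpL summits within 50 bp. For the other words the part of position in these shares was not tested.

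At the gene start, the polypyrimidine initiator was common among RpL genes: 24 of 54 (44.4%) had CTTTC or CTTTT within 10 bases, beside 5.36% of coding genes, 36.8% of RpS and 4.11% of mitochondrial ribosomal protein genes. At any annotated start, a count added after the data had been seen, it was at 39 RpL genes (72.2%) beside 7.85%. Of these 39, 33 had a conservative peak, with a median signal of 236, and of the 15 others 10 had one, with a median of 170. The peak was therefore found with and without the word, RpL40 having the word and no peak, and RpL34a a peak and no word. For DRE and its core CGATA in the promoter the median signals went the other way: 144 with DRE and 234 without, 183 with CGATA and 296 without. Signal was not split by the other promoter words.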

How the data were processed

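The members, word lists and counts were chosen with earlier results of these data known. Peak lists on dm6, per the file headers and listings, were used as deposited: 4 for the series and 2 for each of the 2 samples. The deposited score follows the IDR, the deposited signal is the authors' peak signal, and the deposited −log10 values in the ranked lists are of the global IDR. Ranked lists had a control alignment as input, per the file listings. The aligner, the caller and any versions were not given in the sources used here. Read depth is unknown, since the lists hold no read counts, so no intervals are given. The 8 last columns of each ranked list were not used.

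Genes and starts came from Ensembl release 115 on BDGP6 and sequence from RefSeq. All peaks lay within chromosome ends. A gene's promoter peak was the one of highest signal with its summit within 500 bp of any start. Replicate values are those of the overlapping peak (at least 1 bp). Named singly were the 12 strongest and 6 weakest peaks, genes without a conservative peak and paralogs, and the rest by role; 1 member is counted but not reported singly here. The assignment was tested on simulated data. Python 3.11.15, pandas 2.3.3 and numpy 2.4.6 were used. No test was made, because there is 1 group and no second condition.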

Additional observations from a re-analysis of the deposited data

How the results depend on the processing

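Of 36 alternative values, 25 stayed within the tolerance used: 1.5 times for counts, and the spread between replicates or the Wilson binomial interval for other values. The count of RpL genes with a promoter peak lay between 37 and 44 under every alternative tried, among them windows of 250 and 1000 bp, the other series list, gene starts only and the stronger part of the list. The count of peaks shared with another gene was 14 with a window of 250 bp and 37 with 1000 bp. With 50% reciprocal overlap the peaks in both replicates numbered 28. The median signal was 213 in the other series list. In the replicates' own lists, leaving out 1 replicate at a time, it was 98.0 to 112, on the scale of single replicates, and the median position was -28 to -16 bp. In 50 bases on each side of the summit in place of the promoter, DRE was at 18.6%, CGATA at 46.5%, TATAAA at 9.30%, GAGAG at 4.65%, CAGCTG at 0% and TATTTTAA at 0%. The initiator was at 72.2% with any start counted, an alternative added after the data had been seen. No paired analysis was possible because there is only 1 group. Read depth is unknown, which limits how firmly weak peaks such as those of RpLP2 and RpL35 can be told from absent ones.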
